A study of Homo sapiens with 12 samples.

Results

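The receptors and bridging ligands by which the retinal pigment epithelium (RPE) takes up shed photoreceptor outer segments were followed in ARPE-19 cells, an established human RPE line. The set held 9 genes, MERTK, AXL, TYRO3, GAS6, PROS1, ITGAV, ITGB5, MFGE8 and CD36. They were chosen by symbol, and each matched 1 of the 40591 named lines of the count table. Poly(A) RNA was sequenced from 12 libraries in 4 groups of 3. The GFP, GSTA4 and OSK groups are stable lines that had expressed an introduced open reading frame (ORF) for 4 days. The GFP line carries the fluorescent protein and serves as the ORF control, and the GSTA4 line carries glutathione S-transferase alpha 4, an enzyme that conjugates lipid peroxidation products. The OSK line was read as carrying POU5F1, SOX2 and KLF4, the reprogramming factors. WT names ARPE-19 cells with no ORF in their labels. No other treatment is given, nor whether a group's libraries represent 1 line, 1 clone or separate cultures. The p-values therefore measure only the spread between these libraries, which may be technical, and an ORF and any other difference between the lines cannot be told apart.

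RPE cells bind and engulf the tips of photoreceptor outer segments each day. The integrin alpha-v beta-5, a pair of ITGAV and ITGB5, binds the particle through the bridging protein MFGE8. MERTK, a receptor tyrosine kinase of the TAM family (TYRO3, AXL and MERTK), then drives ingestion once GAS6 or protein S (PROS1) links it to phosphatidylserine on the particle. CD36 is a scavenger receptor that takes part in internalisation. Loss of MERTK causes retinal degeneration.

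The named lines summed to between 12526826 reads (GFP replicate 1) and 16940870 reads (WT replicate 3). The ORF genes followed the labels. GSTA4 stood at 416 ± 17.6 CPM (reads relative to the TMM-scaled library size; SD, n = 3) in the GSTA4 line against 8.79 ± 0.849 in GFP, and POU5F1, SOX2 and KLF4 had means of 779, 628 and 928 CPM in OSK. Of 14 RPE marker genes, 11 passed the filter on low counts. RPE65, the visual cycle isomerase, was near the detection floor, with group means from 0.0229 to 0.495 CPM. DCT and TTR also did not pass, with group means of at most 0.192 and 0.114 CPM. The summed RPE marker level was 2882 to 3301 CPM in GFP, 3099 to 3295 in WT, 2173 to 2191 in GSTA4 and 2381 to 2444 in OSK. KRT8 and EZR had the largest means in every group and weigh most in these sums. Like sums can hide opposite moves: KRT8 stood at 1247 CPM in WT and 843 in GFP, and TYR at 21.2 and 66.0. Of the 11 tested, 9 fell in GSTA4 against GFP and 0 rose, with SERPINF1 at 149.7 CPM against 152. In OSK against GFP 10 fell and 1 rose (EZR, ezrin, from 716 to 1004 CPM). Of all tested genes, 14.6% and 22.8% fell in these comparisons. In GFP against WT, 7 of the 11 rose and 2 fell, where 11% and 11.2% of all tested genes did. Against WT, 2 rose and 7 fell in GSTA4 (19.7% and 19% of all tested genes). The counts in OSK against WT were 3 and 5 (22.7% in each direction), so the counts depend on the control. The part of these RPE markers in the results below was not tested. Macrophage markers, which phagocytic cells would bring, summed to 0.450 to 0.890 CPM in GSTA4, 16.6 to 19.0 in GFP, 9.94 to 13.8 in OSK and 3.36 to 11.2 in WT. CSF1R had group means of 0.459, 17.0, 11.6 and 7.79 CPM in that order, the other 7 genes were each under 0.4 CPM in every group mean, and C1QA had no read in any library. Endothelial markers were mostly KDR. They summed to 71.0 to 94.4 CPM in WT, 58.3 to 72.5 in GFP, 36.1 to 38.7 in GSTA4 and 23.6 to 26.5 in OSK. Of 4 Mueller glia markers, GLUL alone was above 1 CPM, and the list summed to 368 to 408 CPM in GFP, 289 to 302 in GSTA4 and 591 to 602 in OSK. The part of these markers was not tested either. WT replicate 1 stood apart from its group, with a chi-square per gene of 15.0 and 17.4 against replicates 2 and 3, where those 2 differed by 2.54. GFP replicate 1 had reads in 27349 genes, where the other 11 libraries had reads in 19488 to 22073. For the genes of the set, values without these and other libraries are given below beside each result that they end. The marker counts above were not recomputed with a library left out.

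Promoter windows are shown for TYRO3, GAS6 and ITGB5, which the results below turn on: a receptor higher in the GSTA4 and OSK lines, a ligand lower in OSK, and an integrin chain lower in GSTA4. Each runs from 250 bases before to 50 bases after a RefSeq transcript start on GRCh38.p14, 300 bases in all, written 5′ to 3′ on the gene's strand. Capitals mark the GC box, GGGCGG or, on the other strand, CCGCCC. This is the core letter string bound by Sp and KLF family factors. Where a gene has several entries, the one with the most matches is shown. The windows are at chr15:41558962-41559261 (plus strand) for TYRO3, chr13:113864027-113864326 (minus strand) for GAS6 and chr3:124887316-124887615 (minus strand) for ITGB5. The TYRO3 and ITGB5 windows lie within the GENCODE 29 spans of their genes, and the GAS6 window crosses the start of its gene.
TYRO3: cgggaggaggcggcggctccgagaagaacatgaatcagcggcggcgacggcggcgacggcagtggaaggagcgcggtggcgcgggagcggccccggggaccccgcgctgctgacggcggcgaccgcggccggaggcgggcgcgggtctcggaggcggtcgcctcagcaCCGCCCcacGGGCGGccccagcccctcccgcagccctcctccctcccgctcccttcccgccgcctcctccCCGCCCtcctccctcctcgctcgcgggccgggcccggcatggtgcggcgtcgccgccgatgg
GAS6: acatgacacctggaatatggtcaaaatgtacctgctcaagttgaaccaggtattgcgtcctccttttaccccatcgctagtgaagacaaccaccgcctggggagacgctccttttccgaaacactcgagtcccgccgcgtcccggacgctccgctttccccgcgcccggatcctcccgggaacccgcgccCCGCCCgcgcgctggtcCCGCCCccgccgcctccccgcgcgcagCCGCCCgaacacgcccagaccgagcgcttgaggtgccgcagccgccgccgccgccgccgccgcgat
ITGB5: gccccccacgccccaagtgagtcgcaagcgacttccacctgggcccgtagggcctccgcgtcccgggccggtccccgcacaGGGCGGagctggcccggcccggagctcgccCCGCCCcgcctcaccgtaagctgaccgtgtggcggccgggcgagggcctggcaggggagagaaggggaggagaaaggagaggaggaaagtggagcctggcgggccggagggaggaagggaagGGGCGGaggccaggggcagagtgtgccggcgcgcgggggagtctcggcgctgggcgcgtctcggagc

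Each of these windows held 3 GC boxes. All 9 genes matched a RefSeq promoter entry, with 20 entries in all. A GC box was found in 10 of the 20 entries, near the 45.0% of all 35116 promoter windows of that length. By gene, 7 of the 9 had a GC box in at least 1 entry. That count has no like share here, since a gene had up to 6 entries. MERTK had 5 matches in its single entry, and no ITGAV or CD36 entry had any. The octamer ATGCAAAT (ATTTGCAT on the other strand), the letters bound by POU factors, was in 0 of the 20 entries and in 1.77% of all windows. AP-1 letters (TGACTCA or TGAGTCA) were in 1 entry, a CD36 start, and in 4.95% of all windows. TEAD letters (GGAATG or CATTCC) were in 4 entries and in 14.0% of all windows. The CACCC box (CACCC or GGGTG) and the E-box (CACGTG) were also searched, and were in 59.9% and 7.26% of all windows. A CACCC box was in an entry of every gene but GAS6, though not in the windows shown. No entry of the set had an E-box. These are matches of letters only, and no binding was measured.

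Of the 9 genes, 8 passed the filter on low counts and were tested with edgeR's quasi-likelihood test over all 15179 genes. CD36 was not tested. A gene is said to have risen or fallen where its Benjamini-Hochberg adjusted p was under 0.05. In GSTA4 against GFP, 6 of the 8 passed, 2 higher (AXL and TYRO3) and 4 lower (PROS1, ITGAV, ITGB5 and MFGE8). Of all tested genes 29.2% passed, 14.7% higher and 14.6% lower. The median log2 fold change of the 8 was -0.49, against 0.01 over all tested genes. In OSK against GFP, 3 of the 8 passed, TYRO3 higher and GAS6 and PROS1 lower, where 45.9% of all tested genes did (23.1% higher and 22.8% lower). That count is close to the background share, and the median was 0.05 against -0.02. Of the genes that passed in OSK against GFP, 50.4% were higher with TMM scaling and 39.8% with library size alone. In GFP against WT, 3 of the 8 passed (AXL higher, ITGB5 and MFGE8 lower), with 22.2% over all tested genes (11% higher and 11.2% lower). The comparisons with GFP share the GFP libraries, and those with WT share the WT libraries.

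In OSK against GSTA4, 6 of the 8 passed, with MERTK, ITGAV, ITGB5 and MFGE8 higher in OSK and AXL and GAS6 lower. Over all tested genes 47.8% passed, 24.1% higher and 23.8% lower. In GSTA4 against WT, 7 of the 8 passed, AXL and TYRO3 higher and the others but GAS6 lower, where 38.6% of all tested genes did (19.7% higher and 19% lower). In OSK against WT, 5 of the 8 passed, where 45.4% of all tested genes did (22.7% in each direction). AXL and TYRO3 were higher there, and GAS6, PROS1 and MFGE8 lower. The F test for any difference among the 4 groups passed for 8 of the 8, where 66.9% of all tested genes passed. Libraries of the groups did not overlap for 6 of the 8 in GSTA4 against GFP and for 5 in OSK against GFP. The share of all tested genes without overlap was 42.3% and 54.7%. The same count was 3 in GFP against WT (34.6% of all tested genes), 6 in OSK against GSTA4 (58%), 6 in GSTA4 against WT (49%) and 6 in OSK against WT (53.5%). In bulk RNA, fewer cells that make a transcript and less RNA per cell cannot be told apart.

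**Figure D1:**
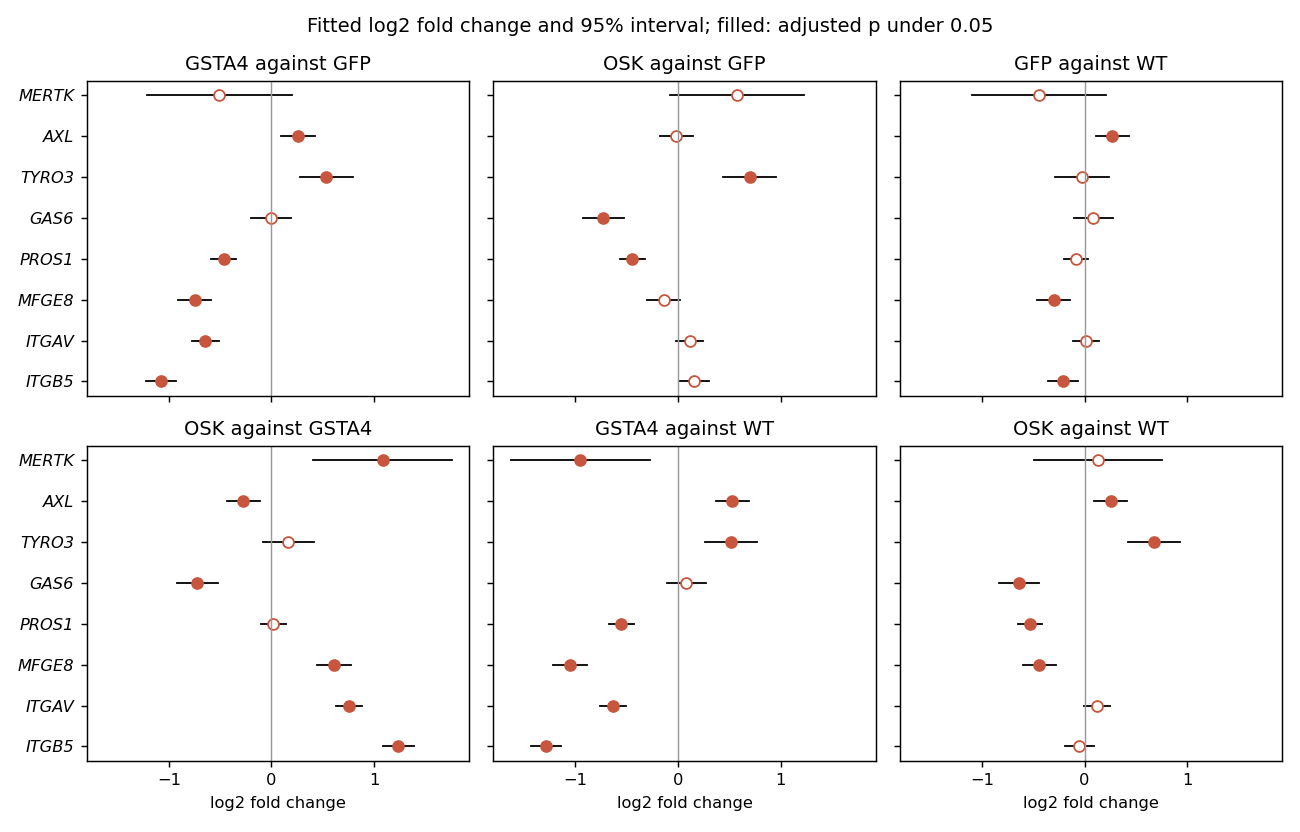
Fitted log2 fold change (horizontal axis) of the 8 tested genes in 6 comparisons, one panel each, with lines for the 95% interval and filled points for an adjusted p under 0.05. ITGB5 lies farthest from 0 in GSTA4 against GFP, at -1.08, and GAS6 in OSK against GFP, at -0.73.

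TYRO3 (chr15:41557675-41583586, plus strand), a TAM receptor bound by GAS6 and protein S, was higher in the GSTA4 and OSK lines. It stood at 16.9, 21.7 and 22.5 CPM in WT replicates 1 to 3 and at 19.5, 19.1 and 21.5 in GFP. In GSTA4 it stood at 29.3, 27.2 and 30.7, and in OSK at 26.4, 37.4 and 33.7. Every GSTA4 and OSK library lay above every WT and GFP library, while GSTA4 and OSK overlapped. Against GFP, TYRO3 rose in GSTA4 by 0.53 on the log2 scale (SE 0.124, adjusted p = 0.00251) and in OSK by 0.70 (SE 0.123, adjusted p = 9.11e-05). GFP and WT differed by -0.02 (adjusted p = 0.928). OSK and GSTA4 differed by 0.16 (95% interval -0.08 to 0.41, adjusted p = 0.277), which became 0.31 (adjusted p = 0.0364) without OSK replicate 1. The pseudogene copy TYRO3P held at most 23 reads in a library.

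AXL (chr19:41219203-41261766, plus strand), the TAM receptor for which GAS6 is the ligand, had the highest level per length of the 3 receptors in each group. Its values were 98.8, 122 and 127 CPM in WT, 128, 142 and 149.5 in GFP, 161, 167 and 174 in GSTA4 and 138, 138 and 139.5 in OSK. All GSTA4 libraries lay above all others, WT was lowest, and OSK lay inside the range of GFP. AXL rose in GSTA4 against GFP by 0.26 (SE 0.0771, adjusted p = 0.0154). That call was lost without GFP replicate 1 (0.20, adjusted p = 0.0878) and without GSTA4 replicate 3 (0.24, adjusted p = 0.0654). The difference between OSK and GFP was -0.02 (95% interval -0.18 to 0.15, adjusted p = 0.891). GFP was above WT by 0.27 (SE 0.0778, adjusted p = 0.0164), a call lost when WT replicate 1 (0.16, adjusted p = 0.0932), GFP replicate 2 (0.26, adjusted p = 0.0531) or GFP replicate 3 (0.22, adjusted p = 0.0738) was left out, and with only the 6 libraries compared (adjusted p = 0.059). OSK was above WT by 0.26 (adjusted p = 0.0104), and by 0.15 (adjusted p = 0.0658) without WT replicate 1. Against WT, AXL rose in GSTA4 by 0.53 (adjusted p = 1.58e-05), and OSK was below GSTA4 by -0.27 (adjusted p = 0.00581).

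MERTK (chr2:111898479-112029561, plus strand), the receptor that drives ingestion in RPE, was scarce. Its reads were 68, 54 and 38 in WT, 40, 33 and 33 in GFP, 18, 37 and 22 in GSTA4 and 43, 72 and 53 in OSK. These are 4.23, 3.97 and 2.24 CPM in WT, 3.04, 2.37 and 2.24 in GFP, 1.14, 2.78 and 1.51 in GSTA4 and 3.06, 4.56 and 3.73 in OSK. All OSK libraries lay above all GFP and GSTA4 libraries, and GSTA4 replicate 2 lay inside the GFP range. Neither line differed from GFP past the threshold: GSTA4 by -0.51 (95% interval -1.21 to 0.20, adjusted p = 0.289) and OSK by 0.58 (95% interval -0.08 to 1.23, adjusted p = 0.14). MERTK was higher in OSK than in GSTA4 by 1.08 (SE 0.324, adjusted p = 0.009), and by 0.83 (adjusted p = 0.0583) without GSTA4 replicate 1. GSTA4 was below WT by -0.95 (SE 0.326, adjusted p = 0.0256), although the libraries of these groups overlapped. This last call was lost without any 1 of WT replicate 1 (-0.78, adjusted p = 0.0865), WT replicate 2 (-0.85, adjusted p = 0.0782), GSTA4 replicate 1 (-0.70, adjusted p = 0.128) and GSTA4 replicate 3 (-0.84, adjusted p = 0.0944), and with only the 6 libraries compared (-0.96, adjusted p = 0.0512).

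Per kilobase of exon, AXL stood at 22.5, 27.2, 32.5 and 26.9 CPM in WT, GFP, GSTA4 and OSK. TYRO3 stood at 1.86, 1.83, 2.65 and 2.97 on that scale, and MERTK at 0.740, 0.542, 0.385 and 0.805. AXL thus made up most of the summed per-length level of the 3 receptors in every group, from 87.7% ± 1.95 in OSK to 91.9% ± 0.723 in GFP (SD, n = 3). The MERTK share was 1.08% ± 0.508 in GSTA4, 1.86% ± 0.449 in GFP, 2.62% ± 0.475 in OSK and 3.03% ± 1.21 in WT. The TYRO3 share was 9.66% ± 1.48 in OSK and between 6.21% and 7.47% in the other groups. Each length joins all annotated exons of a gene, 10945 bases for TYRO3, 5154 for AXL and 4700 for MERTK. The shares depend on these lengths, and a shorter TYRO3 transcript would raise its share. The SDs do not cover this.

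**Figure D2:**
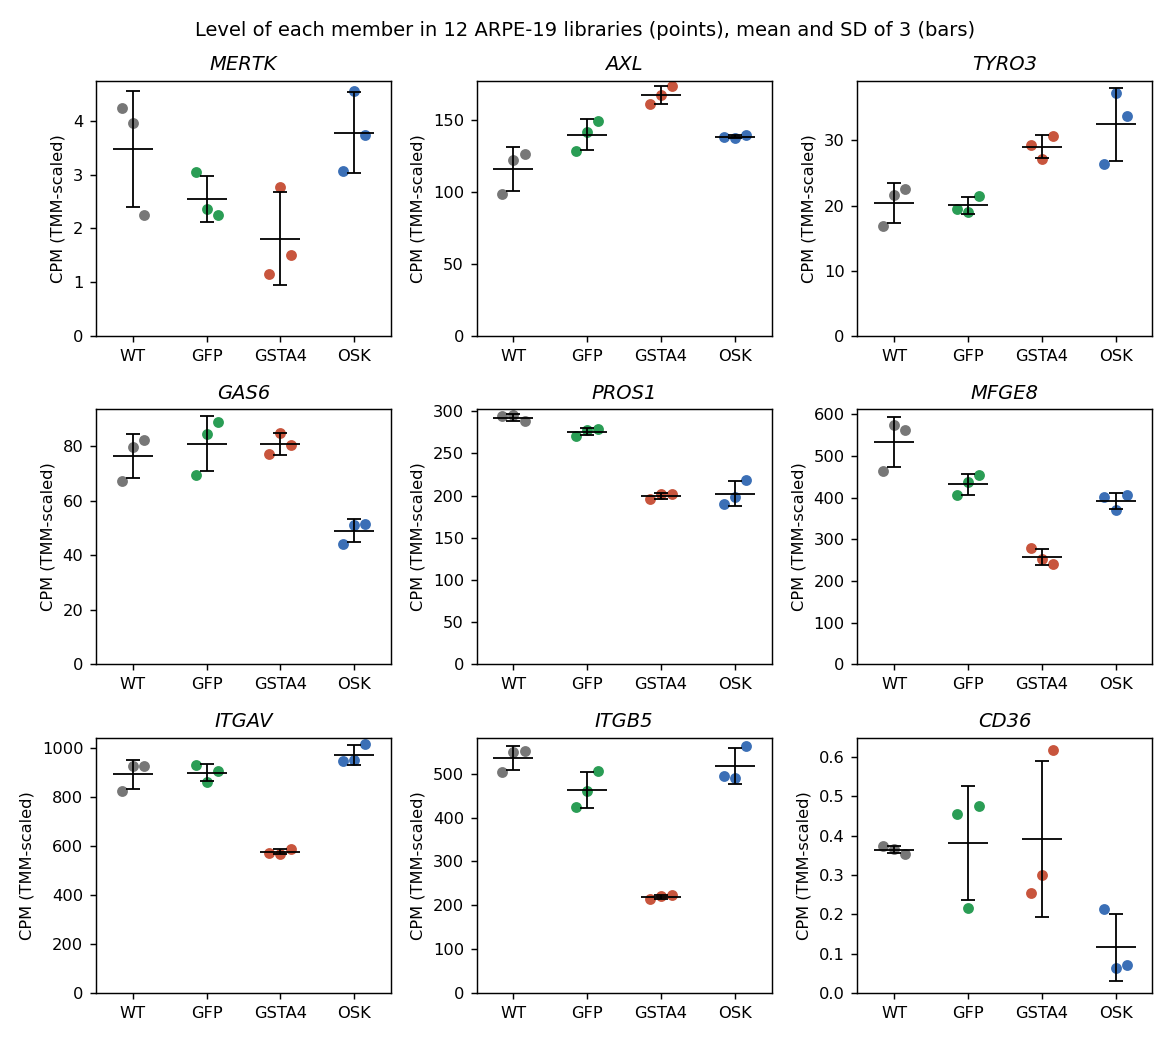
Level of each of the 9 genes (vertical axis, CPM after TMM scaling, each panel on its own scale from 0) by group; points are the 3 libraries of a group and bars the mean and SD. GSTA4 libraries sit lowest for ITGAV, ITGB5 and MFGE8, and OSK libraries lowest for GAS6.

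GAS6 (chr13:113820549-113864067, minus strand), the vitamin K-dependent ligand of all 3 TAM receptors, was lower in OSK than in every other group. It stood at 67.2, 79.5 and 82.4 CPM in WT, 69.6, 84.3 and 89.0 in GFP, 76.9, 85.0 and 80.5 in GSTA4 and 44.0, 51.2 and 51.6 in OSK. The highest OSK library was below the lowest library of any other group, and the other 3 groups overlapped. GAS6 fell by 0.73 in OSK against GFP (log2; SE 0.0941, adjusted p = 2.16e-06). It fell by 0.72 against GSTA4 (adjusted p = 1.89e-06) and by 0.64 against WT (adjusted p = 9.71e-06). GSTA4 and GFP differed by -0.0045 (95% interval -0.20 to 0.19, adjusted p = 0.979). In GENCODE 29, 7.01% of the GAS6 exon bases overlap GAS6-AS1 on the opposite strand. Reads of the 2 genes cannot be told apart there unless strand was used in counting, which is not given in the sources used here. GAS6-AS1 held 10 to 41 reads per library, with 20, 13 and 10 in OSK and 22, 28 and 24 in GFP, and its neighbour GAS6-DT held 4 to 25. GAS6-DT was lower in OSK than in GFP by -1.56 (adjusted p = 0.0218), a call lost without GFP replicate 1 (adjusted p = 0.0668), GFP replicate 2 (0.0731), OSK replicate 1 (0.104) or OSK replicate 3 (0.0806).

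PROS1 (chr3:93873033-93980003, minus strand) encodes protein S, the other TAM ligand and an anticoagulant cofactor, and was lower in the GSTA4 and OSK lines. It stood at 294, 296 and 288 CPM in WT, 271, 278 and 279 in GFP, 196, 202 and 202 in GSTA4 and 190.3, 198 and 219 in OSK. Every GSTA4 and OSK library was below every GFP library, and every GFP library was below every WT library. PROS1 fell by 0.47 in GSTA4 against GFP (SE 0.0577, adjusted p = 2.97e-06) and by 0.45 in OSK against GFP (SE 0.0576, adjusted p = 2.05e-06). The GFP and WT groups differed by -0.09 (adjusted p = 0.311), and OSK and GSTA4 by 0.02 (95% interval -0.10 to 0.14, adjusted p = 0.815). Its near copy PROS2P, a pseudogene, held 2 to 12 reads per library.

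Per kilobase of exon, PROS1 stood at 53.7, 50.7, 36.7 and 37.2 CPM in WT, GFP, GSTA4 and OSK, and GAS6 at 12.7, 13.5, 13.5 and 8.15. The ratio of GAS6 to PROS1 reads within a library, which no scaling between libraries can move, was 0.404 in GSTA4 (range 0.393 to 0.421). It was 0.292 in GFP (0.257 to 0.320), 0.260 in WT (0.229 to 0.286) and 0.242 in OSK (0.231 to 0.258). All 3 GSTA4 libraries lay above the other 9. OSK lay below GFP except for an overlap at the lowest GFP library.

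MFGE8 (chr15:88898683-88913411, minus strand), the secreted protein that bridges phosphatidylserine to alpha-v integrins, was lowest in GSTA4. It stood at 464, 574 and 561 CPM in WT, 405, 437 and 455 in GFP, 278, 252 and 241 in GSTA4 and 400.4, 370.2 and 406 in OSK. GSTA4 did not overlap any other group, WT lay above all of them, and OSK overlapped GFP. MFGE8 fell by 0.75 in GSTA4 against GFP (SE 0.0779, adjusted p = 2.61e-07) and by 0.30 in GFP against WT (SE 0.0769, adjusted p = 0.00793). OSK and GFP differed by -0.14 (95% interval -0.30 to 0.02, adjusted p = 0.148), and by -0.21 (adjusted p = 0.017) when library size alone set the scale. OSK was below WT by -0.44 (adjusted p = 7.78e-05) and above GSTA4 by 0.61 (adjusted p = 1.47e-06).

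ITGB5 (chr3:124761948-124901418, minus strand), the beta chain of the outer segment binding integrin, fell by 1.08 in GSTA4 against GFP on the log2 scale, to 0.474 of the GFP level (SE 0.0713, adjusted p = 2.96e-10). It stood at 503, 549 and 552 CPM in WT, 423, 459.7 and 505 in GFP, 215, 220.3 and 224 in GSTA4 and 495, 491 and 564 in OSK. The 3 GSTA4 libraries lay close together, well below the other 9, while WT, GFP and OSK overlapped. ITGB5 was higher in OSK than in GSTA4 by 1.23 (adjusted p = 9.01e-12) and lower in GSTA4 than in WT by -1.28 (adjusted p = 1.7e-11). OSK and GFP differed by 0.16 (95% interval 0.01 to 0.30, adjusted p = 0.0694), which passed without GFP replicate 3 (0.23, adjusted p = 0.0131), without WT replicate 1 (0.16, adjusted p = 0.029), with no filter (0.18, adjusted p = 0.0391) and with DESeq2 (0.17, adjusted p = 0.041). GFP was below WT by -0.21 (SE 0.0699, adjusted p = 0.0373), although the libraries overlapped. That call was lost without any 1 of WT replicates 2 and 3, GFP replicates 1 and 2 and GSTA4 replicate 2, with adjusted p from 0.0509 to 0.146, and with only the 6 libraries compared (adjusted p = 0.0954). The antisense ITGB5-AS1 held at most 11 reads.

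ITGAV (chr2:186590065-186680901, plus strand), the alpha chain of that integrin, also fell in GSTA4, by 0.64 against GFP (SE 0.0615, adjusted p = 7.74e-08) and by 0.63 against WT (adjusted p = 7.56e-08). It stood at 824, 927 and 928 CPM in WT, 931, 862 and 908 in GFP, 573, 568 and 588 in GSTA4 and 948, 951 and 1019 in OSK. All OSK libraries lay above all WT and GFP libraries, and all GSTA4 libraries below them. OSK and GFP differed by 0.11 (95% interval -0.02 to 0.24, adjusted p = 0.143) and OSK was higher than GSTA4 by 0.76 (adjusted p = 2e-09).

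Within a library, ITGAV reads were 2.62 times ITGB5 reads in GSTA4 (range 2.58 to 2.66), against 1.95 in GFP (1.80 to 2.20), 1.67 in WT (1.64 to 1.69) and 1.89 in OSK (1.81 to 1.94). Every GSTA4 library was above every other, so the 2 chains fell by unequal amounts. Per kilobase of exon, ITGAV stood at 109, 109.6, 70.2 and 118 CPM and ITGB5 at 82.9, 71.8, 34.1 and 80.2 in WT, GFP, GSTA4 and OSK. Among the beta chains that pair with alpha-v (ITGB1, ITGB3, ITGB5, ITGB6 and ITGB8), ITGB5 made up 29.9% ± 1.67 of the summed per-length level in GFP and 19.8% ± 0.766 in GSTA4 (SD, n = 3). ITGB1, which pairs with many other alpha chains, made up 64.0% ± 1.48 and 74.0% ± 0.377. ITGB8 made up 8.53% ± 0.453 in OSK and 5.43% ± 0.482 in GFP. ITGB3 was under 0.9% and ITGB6 under 0.02% in every group mean.

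**Figure D3:**
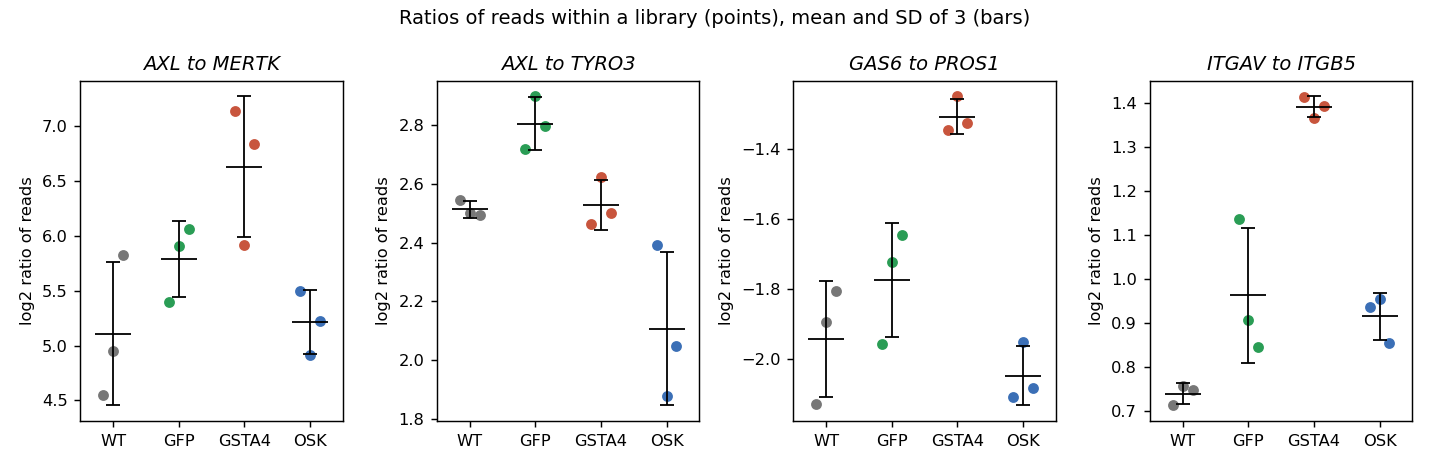
Log2 ratios of reads of gene pairs within a library (vertical axis) by group, one panel per pair, with points for libraries and bars for the mean and SD of 3. The GSTA4 libraries lie above the other 9 for ITGAV to ITGB5 (2.58 to 2.66 as a ratio) and for GAS6 to PROS1 (0.393 to 0.421).

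The AXL to TYRO3 ratio was 6.98 in GFP (6.57 to 7.44), 5.77 in GSTA4 (5.51 to 6.16), 5.71 in WT (5.63 to 5.84) and 4.31 in OSK (3.68 to 5.25). GFP lay above all other groups and OSK below them. The AXL to MERTK ratio had wide ranges, 60.3 to 141 in GSTA4 and 42.2 to 66.7 in GFP, and these overlapped. It was 23.4 to 56.6 in WT and 30.2 to 45.3 in OSK, all below the GSTA4 libraries. This ratio rests on 18 to 72 MERTK reads per library.

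CD36 (chr7:80369575-80679277, plus strand), the scavenger receptor, was at the edge of detection. Its reads were 6, 5 and 6 in WT, 6, 3 and 7 in GFP, 4, 4 and 9 in GSTA4 and 3, 1 and 1 in OSK. The 3 OSK libraries were at or under 3 reads, the most that a count of 0 allows, which is 0.177 to 0.228 CPM across libraries. Summed over a group the reads were 17, 16, 17 and 5 in WT, GFP, GSTA4 and OSK. When the filter was left off, OSK and GFP differed by -1.65 (SE 0.998, unadjusted p = 0.098 and adjusted p = 0.257 by edgeR), so a difference was not detectable at this depth.

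TYRO3 was then set beside its neighbours on chromosome 15, since it was higher in the GSTA4 and OSK lines. The list held 27 genes with starts from -578.79 to 1385.2 kb relative to the TYRO3 start, of which 22 were tested. In this list a start is the lowest coordinate of a gene, whatever its strand. The list was drawn with earlier results of these data known and reaches farther after TYRO3 than before it, so its counts describe these genes and test nothing about the region. In GSTA4 against GFP, 17 of the 22 passed, 16 higher and 1 lower (EHD4, a membrane trafficking ATPase), against 29.2% of all tested genes. The median log2 fold change was 0.36, against 0.01 over all tested genes. ZNF106, a zinc finger protein, rose by 1.03 (SE 0.0973, adjusted p = 6.87e-08), from a mean of 468 CPM to 955. SNAP23, a SNARE of membrane fusion, rose by 0.71 (adjusted p = 3.06e-05) and RTF1, of the transcription elongation complex PAF1C, by 0.54 (adjusted p = 5.39e-06). RPAP1, whose start lies closest before that of TYRO3 among the tested genes, was higher by 0.27 (adjusted p = 0.0168), a call lost without GFP replicate 2 (adjusted p = 0.0723) or GSTA4 replicate 2 (0.0508). MGA, the next listed gene after TYRO3, differed by 0.17 (adjusted p = 0.0979), and by 0.23 (adjusted p = 0.0337) without GSTA4 replicate 1. LTK, a receptor kinase gene between RPAP1 and ITPKA, held 0 to 4 reads and was not tested. The count was smaller against the other control. In GSTA4 against WT, 10 of the 22 passed, 9 higher and 1 lower, where 38.6% of all tested genes did. The median there was 0.25, against 0.01 over all tested genes. GFP against WT gave 1 higher and 3 lower (22.2% of all tested genes passed), with a median of -0.11.

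In OSK against GFP the same neighbours gave 5 calls, 1 higher and 4 lower, against 45.9% of all tested genes. Their median was -0.10 against -0.02 over all tested genes, while TYRO3 rose. CHP1, a calcineurin-like calcium sensor, rose by 0.80 (adjusted p = 1.95e-09). ZNF106 fell by 1.61 (adjusted p = 4.8e-11), from 468 CPM to 154, and MGA, a MAX partner, fell by 0.55 (adjusted p = 4.48e-06). RPAP1 was lower by -0.25 (adjusted p = 0.0186), a call lost without the filter (adjusted p = 0.107) and without GFP replicate 3 (0.0597) or OSK replicate 3 (0.109). In OSK against GSTA4, 15 of the 22 passed, 1 higher and 14 lower, where 47.8% of all tested genes passed (23.8% lower). Leaving out 1 library at a time left 12 to 17 calls in GSTA4 against GFP and 4 to 5 in OSK against GFP.

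**Figure D4:**
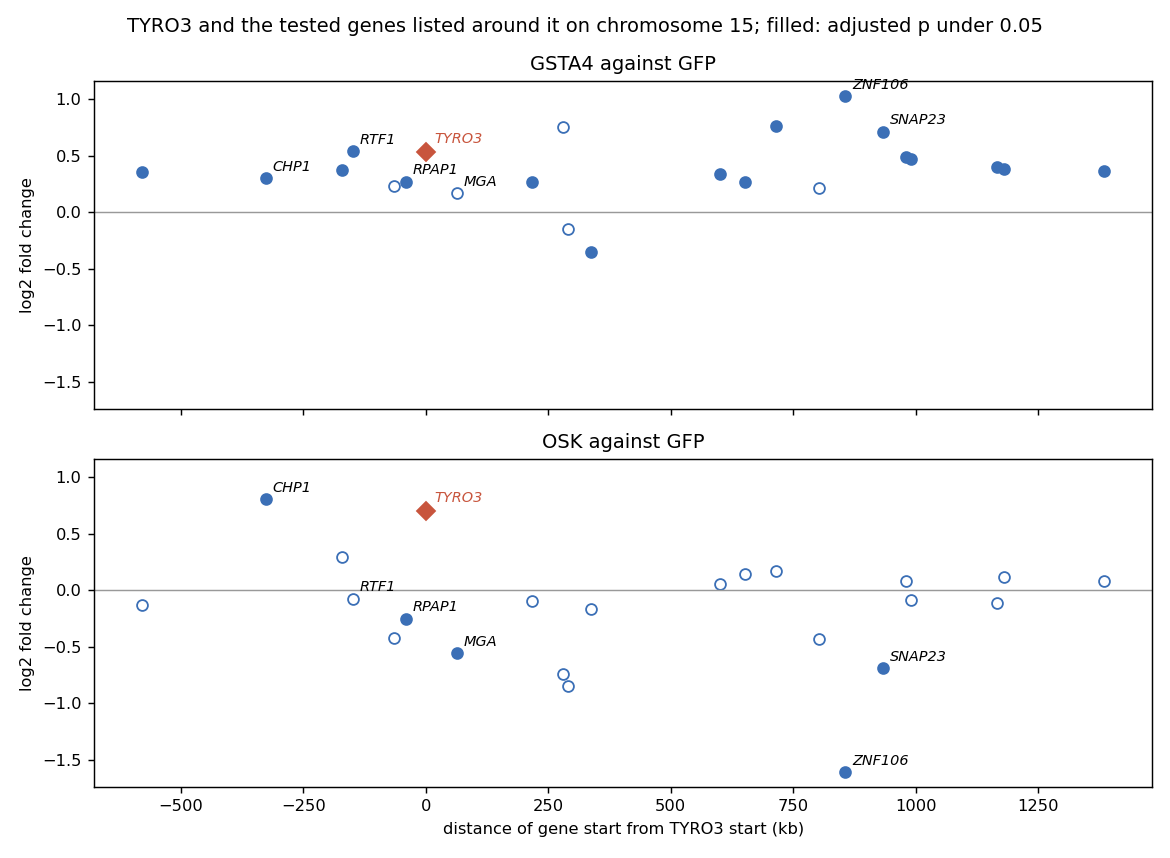
Log2 fold change (vertical axis) of TYRO3 (diamond) and 22 tested neighbours (circles, filled for an adjusted p under 0.05) against the distance of each gene start from the TYRO3 start in kb (horizontal axis), for GSTA4 against GFP and OSK against GFP. A start is the lowest coordinate of a gene, whatever its strand. Most neighbours lie above 0 with TYRO3 in GSTA4 (16 passed as higher), whereas in OSK TYRO3 lies above most of them and 1 passed as higher.

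The other pathway genes are given by list, each count to be read against the share of all tested genes that passed: 29.2% in GSTA4 against GFP (14.7% higher and 14.6% lower), 45.9% in OSK against GFP (23.1% higher and 22.8% lower) and 47.8% in OSK against GSTA4 (24.1% higher and 23.8% lower). The first list joined enzymes that make TAM ligands active, sheddases of the receptors, and TUB, TULP1 and LGALS3, described as further ligands of MERTK, and 7 of its 9 genes were tested. In GSTA4 against GFP, 3 of the 7 fell and 0 rose. VKORC1L1, a vitamin K epoxide reductase, fell by 0.30 (adjusted p = 0.003) and the sheddase ADAM10 by 0.24 (adjusted p = 0.00463). ADAM17, the sheddase that cleaves MERTK, was lower by -0.21 (adjusted p = 0.0466), a call lost without any 1 of replicates 2 and 3 of WT, GFP and OSK and replicates 1 and 2 of GSTA4, with adjusted p from 0.0504 to 0.207, and with no filter (adjusted p = 0.126). In OSK against GFP, 2 of the 7 rose and 1 fell, a share under that of all tested genes. GGCX, the gamma-carboxylase that GAS6 and protein S need for binding phosphatidylserine, rose by 0.52 (adjusted p = 6.6e-06) and the protease FURIN by 0.44 (adjusted p = 3.76e-05), while ADAM17 fell by 0.26 (adjusted p = 0.00786).

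Of 25 other uptake receptors and bridging proteins, 17 were tested, and in GSTA4 10 fell and 1 rose (VTN, vitronectin, an integrin ligand) against GFP, with a median log2 fold change of -0.37 against 0.01 over all tested genes (14.6% of which fell). THBS1, thrombospondin, a ligand of CD36 and CD47, fell by 1.37 (adjusted p = 4.58e-09), from 608 CPM to 235. LRP1, an endocytic receptor for calreticulin-marked cells, fell by 0.69 (adjusted p = 8.7e-07), from 2802 CPM to 1737. OLR1, a receptor for oxidised lipoprotein, had means of 2.12 CPM in GFP and 0.0480 in GSTA4, the latter under the detection floor. Against GFP, 6 rose and 3 fell in OSK. CD81, a tetraspanin that takes part in outer segment binding, rose by 1.10 (adjusted p = 1.17e-11). EDIL3, a bridging protein related to MFGE8, rose by 1.76 (adjusted p = 1.29e-10), from 8.82 CPM to 29.9, and the integrin chain ITGB8 by 0.76 (adjusted p = 3.95e-06). In OSK against GSTA4, 12 rose and 1 fell.

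Of 19 engulfment signalling genes, 17 were tested. In GSTA4 against GFP, 3 rose and 2 fell, about the share of all tested genes (29.2%), with 3 to 7 calls as single libraries were left out. The count was 3 without GFP replicate 3, GSTA4 replicate 2 or GSTA4 replicate 3. PTK2, the focal adhesion kinase downstream of alpha-v beta-5, rose by 0.25 (adjusted p = 0.00176). The unconventional myosin MYO7A fell by 0.90 (adjusted p = 0.00247) and the adaptor GULP1 by 0.42 (adjusted p = 0.00382). Against GFP, 5 rose and 6 fell in OSK, where 45.9% of all tested genes passed. The exchange factor VAV2 rose by 1.31 (adjusted p = 1.62e-09), the annexin ANXA2 by 0.56 (adjusted p = 2.61e-07) and the adaptor CRK by 0.42 (adjusted p = 1.14e-05).

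Phagosome maturation genes (19 of 20 tested) gave 6 higher and 1 lower in GSTA4 against GFP, and 9 higher and 1 lower in OSK against GFP. Of all tested genes 29.2% and 45.9% passed in these comparisons, near the counts of 7 and 10 of 19. By direction, 14.7% and 23.1% of all tested genes were higher, smaller shares than the 6 and 9 of 19 here. The shares lower were 14.6% and 22.8%. MAP1LC3A, an LC3 protein conjugated to phagosome membranes, moved in opposite directions, up by 1.08 in GSTA4 (adjusted p = 2.08e-06) and changed by -1.04 in OSK (adjusted p = 9.66e-06), from a mean of 8.02 CPM in GFP to 17.0 and 3.91. In GSTA4, ATG7, which conjugates LC3, rose by 0.47 (adjusted p = 0.000139) and the cholesterol transporter NPC1 fell by 0.38 (adjusted p = 2.74e-05). In OSK, the lysosomal membrane protein LAMP1 rose by 0.47 (adjusted p = 1.35e-06) and the late endosome GTPase RAB7A by 0.29 (adjusted p = 0.000243).

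Genes of phosphatidylserine exposure, the signal the bridging ligands read, were all tested (7). In GSTA4 against GFP 2 of the 7 fell, about the share of all tested genes (29.2%), the flippase ATP8A1 by 0.71 (adjusted p = 0.000562) and the scramblase family member PLSCR1 by 0.56 (adjusted p = 0.000175). In OSK against GFP 5 rose and 1 fell, where 45.9% of all tested genes passed. PLSCR1 rose by 0.48 (adjusted p = 0.000302), ATP8A1 fell by 1.10 (adjusted p = 2.28e-06), and the flippase subunit TMEM30A was higher by 0.23 (adjusted p = 0.00295), a call lost with library size alone as the scale (0.16, adjusted p = 0.0512). Of 8 genes known to respond to TAM signalling, 6 were tested. In GSTA4 against GFP 2 rose and 2 fell, and 2 calls in all were left without the filter or without GSTA4 replicate 1 or 2. The OSK line gave 3 higher and 1 lower against GFP. Of all tested genes 29.2% and 45.9% passed in these comparisons. ABCA1, the cholesterol exporter induced after uptake of apoptotic cells, rose by 0.89 in GSTA4 (adjusted p = 3.97e-06) and by 1.15 in OSK (adjusted p = 3.73e-08), each against the same GFP libraries. TWIST1, a repressor induced by AXL signalling, rose in GSTA4 by 0.63 (adjusted p = 0.000712), and IFNAR1, a chain of the interferon receptor, rose in OSK by 0.41 (adjusted p = 3.03e-05).

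The genes most alike in pattern were sought for ITGB5, MERTK and MFGE8, the 3 with the widest range of group means among those with a mean of at least 1 CPM (CD36 was below it), among 13696 candidates. The measure was the root mean square difference of centred log2 CPM over the 12 libraries, where 0 is an identical pattern. For ITGB5 these were ATP13A2 (0.117), F11R (0.119) and PMEPA1 (0.130). F11R, a junctional adhesion molecule, had means of 89.7, 86.6, 39.2 and 86.7 CPM in WT, GFP, GSTA4 and OSK. For MFGE8 they were SPDL1 (0.114), EBF4 (0.116) and the tetraspanin CD151 (0.133), and CD151 stood at 808, 662, 469.7 and 632 CPM. For MERTK they were RPS6KA5 (0.192), CA13 (0.312) and FLVCR1-DT (0.317), farther off than for the other members. The kinase gene RPS6KA5 had means of 5.18, 4.01, 2.52 and 5.86 CPM.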

How the data were processed

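Poly(A) RNA of 12 ARPE-19 libraries was made with a NEBNext Ultra II kit, per the labels' protocols. The authors deposited raw read counts per gene. STAR 2.7.1a, featureCounts 1.6.2 and the builds GRCh38 and hg38 (with mouse builds) are listed in the submitters' processing notes. The annotation release and strand setting are not given in the sources used here. Of 60605 lines, 20014 had no symbol (0.485% to 0.822% of reads per library) and were left out.

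Counts were TMM-scaled and tested with edgeR 4.0.16 (limma 3.58.1, R 4.3.3) by the quasi-likelihood test in 1 fit over all 12 libraries, with a mean per group, 8 residual degrees of freedom and no covariate. filterByExpr kept 15179 genes. P-values were two-sided and Benjamini-Hochberg adjusted within each comparison, at a threshold of 0.05. Intervals are 95% intervals of the fit. The floor of 3 reads covers counting error only. Exon lengths and gene positions are those of GENCODE 29 (GRCh38), and promoters those of RefSeq. A length joins all exons annotated for a gene, so levels per length depend on that annotation. The method was tested on simulated counts with the same spread for every gene and few changed genes, all in the GSTA4 group. No simulated library stood apart from its group, so that test does not cover the conditions of these data. Members and gene lists were chosen with earlier results of these data known, and from each list the text names up to 3 passing genes of lowest adjusted p with a mean of at least 1 CPM, and fixed neighbours and near copies. Gene lists were written from general knowledge. A gene that the naming rule picks is not reported here. The alternatives tried were DESeq2 1.42.0, RLE factors or unscaled library sizes in place of TMM, no filter or a 1 CPM minimum mean, fits on just the 6 libraries of a comparison, a block for the replicate number, a test against a log2 change of 0.5, and leaving out single libraries.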

Additional observations from a re-analysis of the deposited data

How the results depend on the processing

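The 8 tested genes in 6 comparisons gave 48 fold changes, each recomputed under every alternative. Of 960 recomputed values, 892 kept their direction and side of the threshold, 41 lost the call, 7 gained it and 20 changed sign, and none of the 20 was called. Leaving out 1 library at a time, the count of called genes ran from 5 to 6 in GSTA4 against GFP, 3 to 4 in OSK against GFP, 1 to 3 in GFP against WT, 5 to 7 in OSK against GSTA4, 6 to 7 in GSTA4 against WT, 4 to 5 in OSK against WT and 7 to 8 in the F test. GFP against WT, with 3 calls, had 1 with only its own libraries and 1 without GFP replicate 2. Requiring a log2 change beyond 0.5 left 2 calls in GSTA4 against GFP, 1 in OSK against GFP, 0 in GFP against WT, 3 in OSK against GSTA4, 2 in GSTA4 against WT and 0 in OSK against WT, since edgeR then tests against that minimum. Signs changed for small differences: with no filter for AXL in OSK against GFP (0.0022), GAS6 in GSTA4 against GFP (0.0058) and ITGAV in GFP against WT (-0.0072), and with library size alone for PROS1 in OSK against GSTA4 (-0.044). Across left-out libraries these ran from -0.11 to 0.31 for MERTK in OSK against WT, -0.073 to 0.041 for AXL in OSK against GFP and -0.15 to 0.059 for TYRO3 in GFP against WT. GAS6 ran from -0.10 to 0.062 in GSTA4 against GFP, -0.0032 to 0.18 in GFP against WT and -0.0053 to 0.14 in GSTA4 against WT. PROS1 in OSK against GSTA4 ran from -0.028 to 0.077, and ITGAV in GFP against WT from -0.048 to 0.043. Depth limits MERTK (18 to 72 reads) and CD36 (1 to 9 reads).

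The labels give the groups the same replicate numbers. Deviations of same-numbered libraries correlated by -0.0221 to 0.135 over 18 pairs, 1 of them over 0.1. The largest were those of WT replicate 1, at 0.135 with GFP, 0.0971 with GSTA4 and 0.0883 with OSK. In 18 of 36 comparisons a library correlated best with its own number, among 3 candidates. The correlations are low, but they cannot settle whether same-numbered libraries were handled together. With the replicate number as a block, the calls were 6 in GSTA4 against GFP, 4 in OSK against GFP (ITGB5 added, 0.16, adjusted p = 0.0215), 3 in GFP against WT, 6 in OSK against GSTA4, 7 in GSTA4 against WT and 5 in OSK against WT, and GAS6 in GSTA4 against GFP was 0.0032.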
